A study of Mus musculus with 6 samples.

Results

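The neuromuscular junction genes described here are Chrna1, Chrnb1, Chrnd, Chrne, Chrng, Musk, Rapsn, Lrp4 and Ache, 9 of the 18193 genes measured. They were chosen by name, as every probe set annotated to exactly 1 of these symbols, which gave 11 probe sets of 45037 other than controls. Inguinal white adipose tissue, the subcutaneous fat of the groin, was taken from 3 WT and 3 Naa10-KO male mice, 1 array per mouse. All 6 mice had begun, when 6 weeks old, to eat a high-fat diet in which fat supplied 60% of calories. They stayed on it for 15 weeks and were kept at 4 °C for 4 h before the tissue was collected. The labels give the strain, the knockout allele and the litters of neither group, and Naa10 itself was not analysed here, so the genotype labels were not checked against its transcript.

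At the neuromuscular junction a motor nerve ending releases acetylcholine onto a patch of muscle membrane packed with nicotinic receptors. The receptor is a ring of 5 subunits that opens a cation channel. Fetal or denervated fibres build it from the α1, β1, δ and γ subunits (Chrna1, Chrnb1, Chrnd and Chrng), and adult fibres replace γ with ε (Chrne). Agrin from the nerve binds Lrp4, which switches on the kinase MuSK (Musk), and the scaffold rapsyn (Rapsn) then anchors the receptors in clusters. Acetylcholinesterase (Ache) breaks down the transmitter in the cleft. Adipocytes bear no such junctions, and some of these genes, such as Lrp4 and Ache, are also expressed by cells other than muscle.

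The promoters of several of these genes are textbook examples of muscle-restricted control. Myogenic factors such as MyoD and myogenin bind E-boxes (CANNTG, with the core CAGCTG as a special case), and the GABP complex binds the N-box (CCGGAA) that drives transcription in the nuclei under the synapse. RefSeq promoters of assembly GRCm38.p6 were matched for 6 of the 9 genes and searched on both strands over the 250 bases before the start. Chrna1, the only member whose groups of arrays did not overlap, is shown with Chrng and Chrne, the fetal and adult partners, over the 150 bases before the start, read 5′ to 3′ on the strand of the gene, with E-boxes and N-boxes in capitals.
Chrna1 (chr2:73580339-73580488, minus strand): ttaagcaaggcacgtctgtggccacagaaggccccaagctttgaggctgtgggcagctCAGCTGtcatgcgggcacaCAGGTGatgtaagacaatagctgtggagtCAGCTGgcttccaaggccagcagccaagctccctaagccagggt
Chrng (chr1:87205661-87205810, plus strand): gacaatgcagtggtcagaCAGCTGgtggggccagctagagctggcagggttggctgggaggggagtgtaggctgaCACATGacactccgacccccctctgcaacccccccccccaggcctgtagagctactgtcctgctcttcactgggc
Chrne (chr11:70619195-70619344, minus strand): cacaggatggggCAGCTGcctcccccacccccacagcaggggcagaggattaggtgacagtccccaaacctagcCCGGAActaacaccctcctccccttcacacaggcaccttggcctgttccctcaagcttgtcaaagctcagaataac
Within 250 bases, Chrna1 held 3 E-boxes, at 92, 73 and 44 bases before the start, and those at 92 and 44 carried the core. Chrng held 3, of which the cores lay at 155 bases, just outside the stretch shown, and at 132 bases. Chrne held 1 E-box, a core at 138 bases, and 1 N-box at 76 bases, the only N-box found among the 6 genes. Musk and Chrnb1 held 3 E-boxes each and Ache held 1, and of these 3 genes only Musk had the core, at 68 bases. Of all 32851 RefSeq promoters, 66.2% held an E-box over the same length, 13.0% its core and 12.0% an N-box. These letters are a description of the windows and show no bound factor.

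The deposited values are log2 signals, with each array scaled to 1 common level. Their median over all probe sets and arrays, 5.86, serves below as a mark of low signal, since no detection calls were used. Array medians lay between 5.78 and 5.96, and correlations between pairs of arrays between 0.903 and 0.917. Per array, the mean log2 signal of 28 skeletal muscle markers was 4.74, 5.23 and 7.89 for WT (replicates 1 to 3) against 10.70, 10.65 and 10.90 for Naa10-KO. Summed on the linear scale, these markers came to 8795 to 24658 in WT and 141168 to 179537 in Naa10-KO. On WT replicates 1 to 3, 7, 10 and 25 of the 28 reached the mark, and on the Naa10-KO arrays 27 or 28, so none was low throughout. All 8 measured of 10 white adipocyte markers reached the mark on every array, and 0 passed in limma or had an unadjusted p under 0.05. Their median log2 difference (Naa10-KO minus WT) was -0.17, with 3 means higher and 5 lower, from -0.41 for Lipe, a lipase, to 0.19 for Fabp4, a fatty acid carrier. In bulk tissue, fewer cells of a type and less RNA per cell cannot be told apart.

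Mean signals lay below the mark for all 9 junction genes in WT and for 7 in Naa10-KO, the exceptions being Chrna1 and Chrnb1. No difference between the genotypes passed the test. Of the 54 values of the 9 genes, 8 reached the mark, and 5 genes (Chrne, Chrng, Rapsn, Lrp4 and Ache) stayed below it on all 6 arrays, as did 27.1% of all genes. In limma, 0 of the 9 passed at an adjusted p of 0.05, with 1 at an unadjusted p under 0.05, against 0.115% of all genes called (0.0879% higher and 0.0275% lower) and 9.20% at that unadjusted p. Means were higher in Naa10-KO for 5 members and lower for 4, with a median log2 difference (Naa10-KO minus WT) of 0.01, the same as the median of 0.01 over all genes. In 1 member, Chrna1, every Naa10-KO array exceeded every WT array, and in 0 members the reverse held, against 10.0% and 8.14% of all genes (18.1% in either direction).

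**Figure D1:**
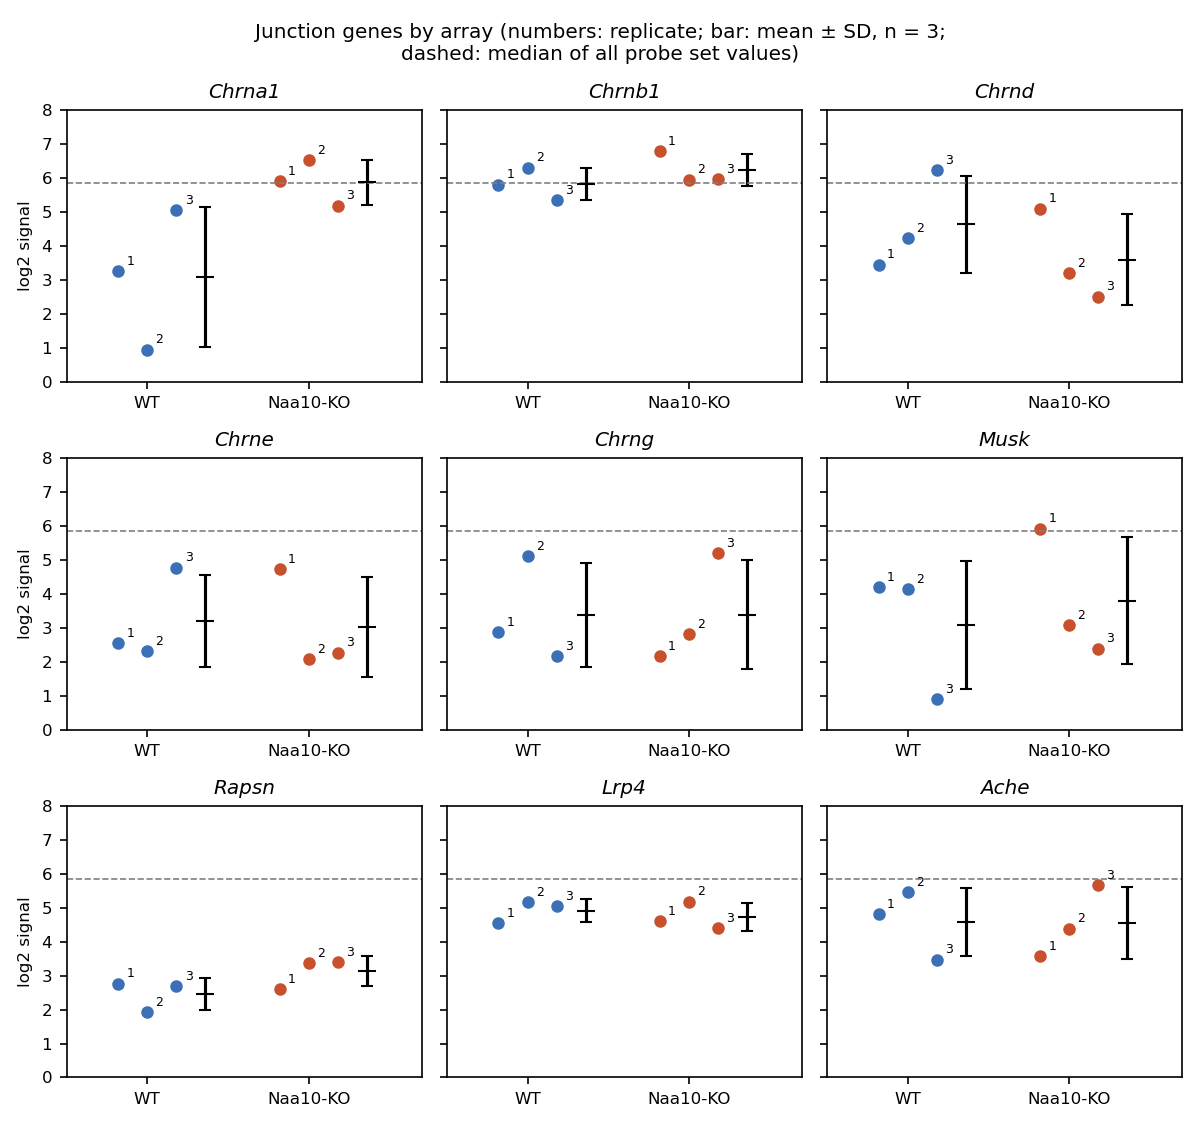
Log2 signal of each junction gene on each array (points, numbered by replicate; blue WT, red Naa10-KO), with the mean ± SD of each genotype (n = 3) beside the points and the median of all probe set values, 5.86, as a dashed line. Most points lie below the line, and only in Chrna1 do the genotypes not overlap.

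Chrna1 encodes the α1 subunit, which carries the acetylcholine binding face and is present in both the fetal and the adult receptor. Its log2 signal was 3.26, 0.95 and 5.06 in the WT mice (replicates 1 to 3) and 5.91, 6.52 and 5.19 in the Naa10-KO mice. The Naa10-KO arrays were all higher, but the lowest of them exceeded the highest WT array by only 0.13. The means were 3.09 ± 2.06 (SD, n = 3) in WT and 5.88 ± 0.67 in Naa10-KO. The log2 difference was 2.78 (SE 1.08, 95% interval 0.05 to 5.51, limma adjusted p = 0.540), ranked 1566 of 18193 genes by p. With values below the mark raised to it, the difference became 0.24, since only Naa10-KO replicates 1 and 2 lay above the mark. After quantile normalization or median centring of the arrays the groups overlapped, while the difference stayed at 2.83 and 2.78. Among the WT arrays Chrna1 was highest on replicate 3, the WT array with the highest muscle marker mean. Of WT replicates 1 and 2, that mean was higher on replicate 2 and Chrna1 on replicate 1. Among the Naa10-KO arrays Chrna1 was lowest on replicate 3, where that mean was highest. Over the 6 arrays r with that mean was 0.86 for Chrna1, 0.68 for Rapsn and -0.23 to 0.25 for the other members. The part of muscle content in the Chrna1 result was not tested. With 1 array left out the Chrna1 difference ranged from 1.71, without WT replicate 2, to 3.77, without WT replicate 3.

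Chrnb1 encodes β1, a structural subunit of both receptor forms. Its signal was 5.81, 6.31 and 5.36 in WT and 6.79, 5.95 and 5.97 in Naa10-KO. The WT values straddled the mark, the Naa10-KO values all lay above it, and WT replicate 2 exceeded the lower Naa10-KO arrays. The log2 difference was 0.41 (SE 0.36, 95% interval -0.49 to 1.31, limma adjusted p = 0.732). With 1 array left out it ranged from 0.14, without Naa10-KO replicate 1, to 0.66, without WT replicate 2, where the groups no longer overlapped, and was 0.18 without WT replicate 3.

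Chrnd encodes δ, which forms part of a binding site in both receptor forms. Its signal was 3.45, 4.24 and 6.23 in WT and 5.10, 3.20 and 2.50 in Naa10-KO. WT replicate 3 was the one array above the mark, and the genotypes overlapped over most of their range. The mean was lower in Naa10-KO, with a log2 difference of -1.04 (SE 0.98, 95% interval -3.51 to 1.44, limma adjusted p = 0.753). With 1 array left out it ranged from -1.79, without Naa10-KO replicate 1, to -0.24, without WT replicate 3. It was -1.63 without WT replicate 1 and -0.49 without Naa10-KO replicate 3.

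The subunits that distinguish the adult from the fetal receptor lay below the mark on every array. Chrne, the adult ε subunit, was at 2.55, 2.32 and 4.77 in WT and 4.73, 2.08 and 2.27 in Naa10-KO. Each genotype held 1 high array, WT replicate 3 and Naa10-KO replicate 1, and the groups overlapped. The log2 difference was -0.19 (SE 1.005, 95% interval -2.71 to 2.34, limma adjusted p = 0.961). Chrng, the fetal γ subunit, was at 2.87, 5.11 and 2.16 in WT and 2.16, 2.81 and 5.21 in Naa10-KO on the probe set of highest mean. Again 1 array of each genotype stood above the others, and the log2 difference was 0.01 (SE 1.11, 95% interval -2.79 to 2.81, limma adjusted p = 0.999).

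Chrng had 3 probe sets, and they did not rank the arrays alike. A second one was at 0.73, 3.89 and 2.98 in WT and 2.03, 5.19 and 3.01 in Naa10-KO, with a difference of 0.88. The third was at 2.19, 0.87 and 1.17 in WT and 3.81, 4.07 and 1.81 in Naa10-KO, a difference of 1.82 (95% interval 0.01 to 3.64). Naa10-KO replicate 3 fell below WT replicate 1 on it, so its groups overlapped. Tested one by one over all probe sets, 0 of the 11 member probe sets passed in limma, as for all probe sets (0%), with the groups not overlapping in 1 (15.9% of all). Of the 11, 2 had an unadjusted p under 0.05, this one and that of Chrna1, against 7.46% of all. The third Chrng probe set had an adjusted p of 0.669. Every value of the 3 probe sets lay below the mark, and whether they lay above background is unknown.

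The organisers of the postsynaptic membrane gave no clearer separation. Musk, the receptor kinase, was at 4.21, 4.14 and 0.91 in WT and 5.92, 3.08 and 2.38 in Naa10-KO. Naa10-KO replicate 1 alone reached the mark and the lowest value was that of WT replicate 3, the WT array richest in muscle markers. The log2 difference was 0.71 (SE 1.33, 95% interval -2.63 to 4.05, limma adjusted p = 0.877). It turned to -0.38 without WT replicate 3 and to -0.35 without Naa10-KO replicate 1.

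Rapsn, the clustering scaffold, was at 2.76, 1.93 and 2.69 in WT and 2.61, 3.37 and 3.40 in Naa10-KO. Naa10-KO replicates 2 and 3 exceeded each WT array and replicate 1 did not. The log2 difference was 0.67 (SE 0.34, 95% interval -0.19 to 1.53, limma adjusted p = 0.600), at signals far below the mark. Lrp4, the agrin receptor, was at 4.54, 5.17 and 5.05 in WT and 4.62, 5.19 and 4.40 in Naa10-KO. Its arrays spanned only 0.78 log2 units, which gave the narrowest interval of the 9 genes (log2 difference -0.19, SE 0.29, 95% interval -0.91 to 0.54, limma adjusted p = 0.853).

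Ache, the cleft enzyme, was at 4.81, 5.45 and 3.47 in WT and 3.57, 4.39 and 5.68 in Naa10-KO. Both genotypes covered nearly the same range, and the log2 difference was -0.03 (SE 0.74, 95% interval -1.89 to 1.83, limma adjusted p = 0.993).

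**Figure D2:**
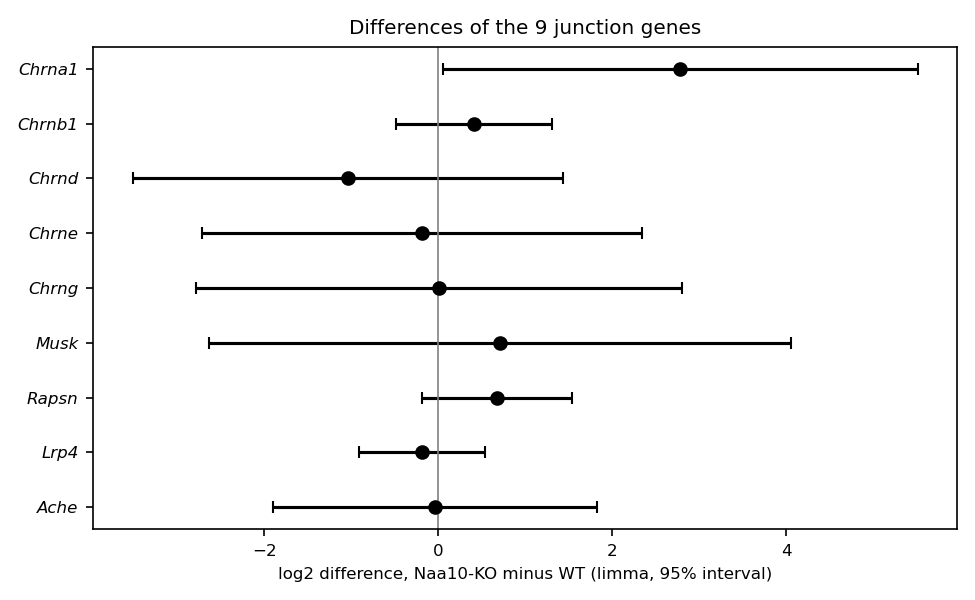
Log2 difference between Naa10-KO and WT for each junction gene, with limma's 95% interval (n = 3 arrays per genotype). The interval of Chrna1 lies between 0.05 and 5.51, and those of the other 8 genes include 0.

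The spread within a genotype was wide for most of these genes. The pooled SD of the 9 members ranged from 0.37 to 1.88 with a median of 1.39, against medians of 1.13 over the 6834 genes with a mean below the mark and 0.22 over those at or above it. The intervals therefore leave room for sizeable changes, most widely in Chrna1, Chrnd, Chrne, Chrng, Musk and Ache. Those of Chrnb1 and Rapsn reached up to 1.31 and 1.53. A p that misses the threshold does not show that the 9 genes were alike in the 2 genotypes. Intervals of 8 members included 0, the exception being Chrna1. All p-values set a difference against the spread between these 3 mice of each genotype, moderated by limma with the spread of other genes.

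General muscle transcripts had higher means in Naa10-KO on the same arrays. Of the 28 skeletal muscle markers, a list put together with earlier results of these data known, all 28 means were higher, with a median log2 difference of 4.57 and a range of 1.24 to 8.76. In limma 2 passed (Ldb3 and Pvalb) and 26 did not, against 0.115% of all genes called. In 26 all Naa10-KO arrays were higher than all WT arrays, against 10.0% of all genes. Neb, the giant thin-filament protein nebulin, went from 3.88 to 8.17, and Ckm, the muscle creatine kinase, from 6.44 to 12.95. The difference between the lists was not tested, and how each probe set responds near the low end was not tested either.

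**Figure D3:**
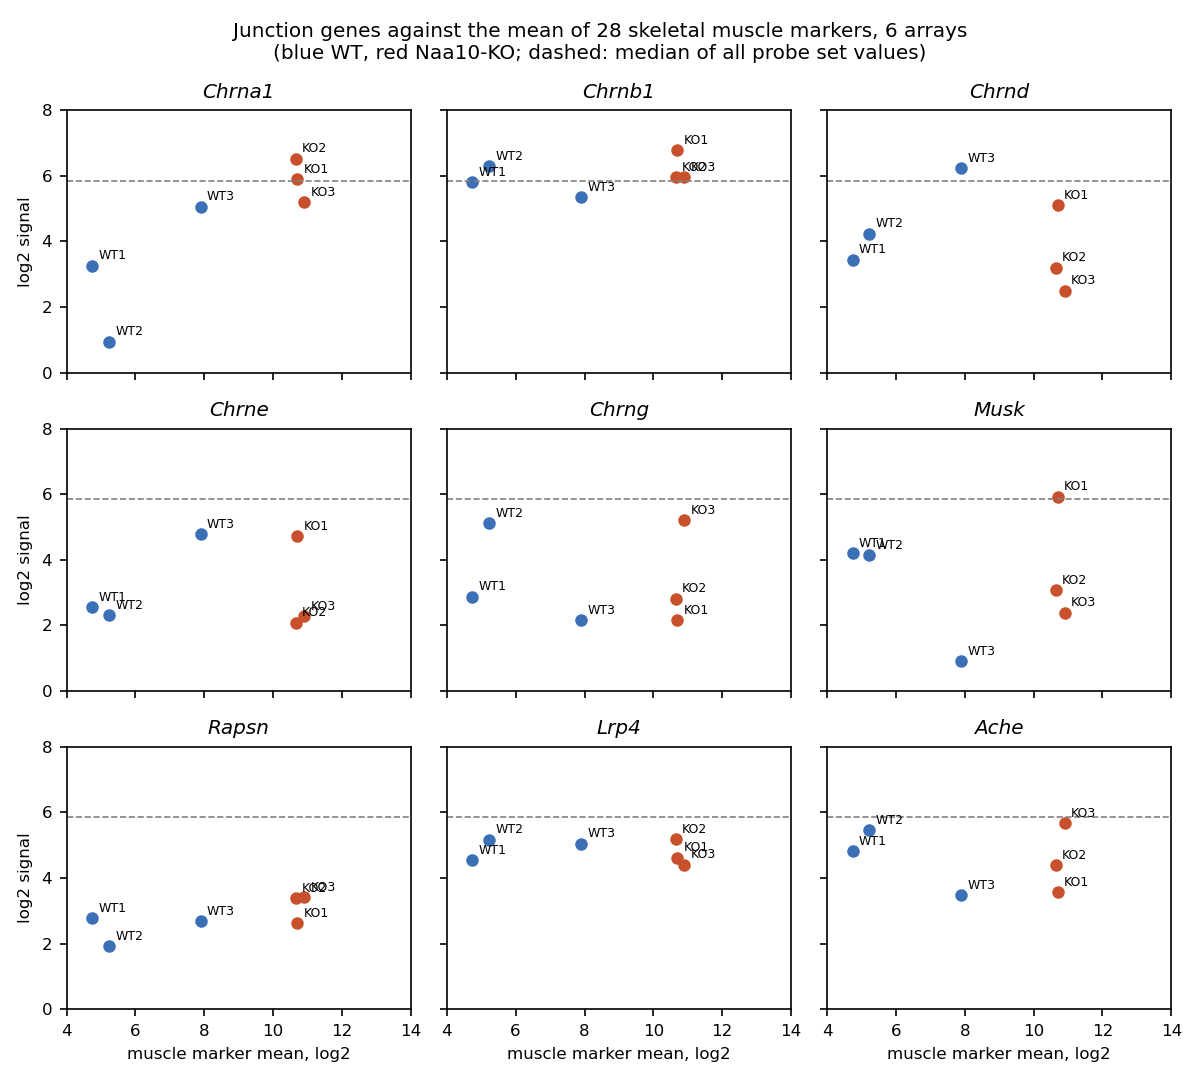
Log2 signal of each junction gene (vertical) against the mean log2 signal of 28 skeletal muscle markers (horizontal) on the same array, with WT in blue, Naa10-KO in red and the median of all probe set values as a dashed line. Over muscle marker means from 4.74 to 10.90, Chrna1 is lowest on WT replicates 1 and 2, and Chrnd, Chrne and Musk are not highest on all the Naa10-KO arrays.

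Across the 6 arrays, correlations between pairs of junction genes ran from -0.85 to 0.93. Chrnd and Chrne were both highest on WT replicate 3, and for both Naa10-KO replicate 1 came next (r = 0.88). Chrng and Ache were both highest on Naa10-KO replicate 3 and next highest on WT replicate 2 (r = 0.93), and Chrnb1 and Musk were both highest on Naa10-KO replicate 1 (r = 0.89). Chrna1 had r = 0.78 with Rapsn, 0.31 with Chrne, -0.04 with Chrnb1 and -0.54 with Chrng. These 7 were picked from 36 pairs after their values were seen. The points are the same 6 arrays for every pair, mostly at low signal, and the values are a description. Naa10-KO replicate 1 also stood apart on the Gapdh control probe sets, where the 3′ log2 signal exceeded the 5′ by 0.55, against -0.27 to 0.01 on the other arrays, and the part of RNA quality in its values was not tested.

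Without Naa10-KO replicate 1, the genotypes did not overlap in 4 members, with Chrna1 and Rapsn higher and Chrnd and Chrne lower, against 25.5% of all genes. Without WT replicate 2 they did not overlap in Chrna1 and Chrnb1, against 26.1% of all genes. With all arrays the share was 18.1%. In each of the 6 fits with 1 array left out, 0 members passed in limma.

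By pattern over the 6 arrays, the 5 genes most like Chrna1 among 11793 genes reaching the mark in at least 1 genotype were Tmsb4x, Wrnip1, Gm16794, Xpo7 and She. Pearson r with Chrna1 was 0.987 to 0.994 over the 6 arrays, and 0.970 to 0.992 over deviations from the genotype means. Tmsb4x encodes thymosin β4, an actin-binding peptide, and Xpo7 a nuclear exporter, and none of the 5 is a muscle marker of the list used here. Their log2 differences were 0.11 for Tmsb4x, 0.42 for Wrnip1, 1.83 for Gm16794, 0.25 for Xpo7 and 0.24 for She, with limma adjusted p between 0.570 and 0.805. With 6 arrays, so many candidates yield near-perfect correlations readily, and the list is given only as a description.

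Other genes of the junction, of denervated or immature muscle, of sugar chains and of other acetylcholine receptors were grouped into 10 lists. These held 88 genes, of which 81 were measured. In limma 0 passed in either direction, and 11 of the 81 had an unadjusted p under 0.05, against 9.20% of all genes. That share also stands beside the counts at this p given for each list below. The Naa10-KO arrays were all higher than WT for 9 (11.1%) and all lower for 6 (7.41%), near the 10.0% and 8.14% of all genes, and the median log2 difference was 0.04. Some of these genes, among them Sgca, Cacna1s, Trim63 and Fbxo32, are expressed by skeletal muscle, whose marker means are given above and differed on the same arrays, and the part of muscle content in their values was not tested.

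Genes of agrin signalling reached the mark on at least 1 array each and had a small median difference (9 of 9 measured, 0 passed, 0 at an unadjusted p under 0.05, median 0.13). Agrn, the nerve-derived organiser agrin, which many other cells also make, was at 7.61, 6.83 and 7.21 in WT and 7.06, 7.38 and 6.52 in Naa10-KO. Its log2 difference of -0.23 was smaller in size than its SE of 0.31 (limma adjusted p = 0.831). Dok7, the cytoplasmic activator of MuSK, was at 6.21, 5.83 and 4.70 in WT and 6.80, 5.84 and 6.97 in Naa10-KO, with a difference of 0.96 (adjusted p = 0.608) with overlapping groups. Macf1, a linker of microtubules and actin, differed by -0.43 and Dnaja3, a co-chaperone that binds MuSK, by 0.24.

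In the synaptic cleft list (7 measured, 0 passed, 2 at an unadjusted p under 0.05, median -0.14), 2 genes were lower on all Naa10-KO arrays, against 8.14% of all genes. Bche, butyrylcholinesterase, the relative of Ache that also occurs in fat and plasma, was at 12.43, 12.38 and 12.37 in WT and 11.68, 11.70 and 11.81 in Naa10-KO. The arrays of a genotype lay close together, and the log2 difference was -0.66 (SE 0.13, limma adjusted p = 0.260). Lama5, a basement membrane laminin chain, differed by -0.70 (adjusted p = 0.524). Colq, the collagen tail that holds Ache in the cleft, lay below the mark on all arrays (4.20 in WT, 4.27 in Naa10-KO), and Col13a1, a membrane collagen of the junction, differed by -0.64.

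The dystrophin and utrophin scaffold (13 of 15 measured, 0 passed, 2 at an unadjusted p under 0.05, median -0.15) held differences in both directions. Sgca, a sarcoglycan of striated muscle, was at 4.65, 5.58 and 3.47 in WT and 7.29, 7.53 and 7.60 in Naa10-KO. All WT arrays lay below the mark and all Naa10-KO arrays above it (log2 difference 2.90, SE 0.55, limma adjusted p = 0.253). Sgcd, the δ-sarcoglycan also present in smooth muscle, differed by -0.88 (adjusted p = 0.214), with all Naa10-KO arrays below all WT arrays. Nos1, the neuronal nitric oxide synthase held at the muscle membrane, differed by 0.73, and Utrn, the synaptic dystrophin relative that many cell types express, by 0.25 (adjusted p = 0.744).

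Neuregulin signalling and the factors of subsynaptic transcription had a small median difference (8 measured, 0 passed, 0 at an unadjusted p under 0.05, median 0.16). Gabpa, the DNA-binding subunit of the complex that recognises the N-box, averaged 11.34 in WT against 11.69 in Naa10-KO (difference 0.35, limma adjusted p = 0.598). Etv5, an ETS factor of the junction, differed by 0.38 and Erbb4, a neuregulin receptor, by 0.89 at signals below the mark.

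The muscle membrane list (4 of 5 measured, 0 passed, 1 at an unadjusted p under 0.05, median 0.94) was led by Cacna1s, the voltage sensor of excitation-contraction coupling. Its signal was 1.23, 1.88 and 2.52 in WT and 4.88, 5.92 and 5.74 in Naa10-KO (log2 difference 3.64, SE 0.44, limma adjusted p = 0.101). The groups lay far apart, although 1 of the 6 arrays reached the mark. Kcna7, a potassium channel of muscle, differed by 1.10 and Clcn1, the muscle chloride channel, by 0.78. Scn4a, the muscle sodium channel, was not analysed here.

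Genes tied to denervated or immature muscle, not sorted by their direction of change there, were mixed (12 of 13 measured, 0 passed, 3 at an unadjusted p under 0.05, median 0.58). On 4 of them all Naa10-KO arrays were higher, against 10.0% of all genes. Trim63, the ubiquitin ligase MuRF1, was at 2.16, 0.98 and 5.93 in WT and 13.18, 11.60 and 11.36 in Naa10-KO, the largest difference of the list (log2 difference 9.02, SE 1.38, limma adjusted p = 0.167). Fbxo32, the ubiquitin ligase atrogin-1, was at 6.76, 7.26 and 7.44 in WT and 10.58, 10.39 and 9.08 in Naa10-KO (log2 difference 2.86, adjusted p = 0.183). Hdac4, a deacetylase that relays loss of nerve activity, differed by 0.63. Trim63 and Fbxo32 are also expressed by resting muscle and induced by fasting and glucocorticoids.

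Of the 12 genes, 6 had low signals throughout. Myog, the myogenic factor that activates receptor genes after denervation, was at 2.18, 4.98 and 4.51 in WT and 5.61, 5.37 and 4.81 in Naa10-KO, with overlapping groups below the mark (log2 difference 1.37, limma adjusted p = 0.629). Ncam1, an adhesion molecule of denervated fibres and nerve, differed by -0.92, and Myh3, the embryonic myosin heavy chain, was at 1.39 and 1.27. Myog, Ncam1, Myh3, Myh8, Ankrd1 and Dach2 lay below the mark on all arrays, whereas Gadd45a, a stress response gene, averaged 10.13 in WT against 10.24 in Naa10-KO, and Runx1, a transcription factor, 6.69 against 6.54.

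Genes of the motor nerve terminal were mostly below the mark, 7 of 10 on all arrays, among them Chat, the enzyme that makes acetylcholine, and its vesicular transporter Slc18a3 (10 measured, 0 passed, 1 at an unadjusted p under 0.05, median -0.04). Syt2, a calcium sensor of fast transmitter release, was at 5.52, 6.04 and 4.93 in WT and 2.57, 2.04 and 3.15 in Naa10-KO. The Naa10-KO arrays were all lower (log2 difference -2.91, SE 0.41, limma adjusted p = 0.145), and only WT replicate 2 reached the mark. Slc5a7, the choline transporter, differed by -0.46, and Nefm, a neurofilament, by 1.71 at signals below the mark. Among 9 measured nerve and Schwann cell markers 0 passed and 3 had an unadjusted p under 0.05, against 9.20% of all genes. These 3 were Mbp, a myelin protein, at 1.05, Cdh19 at 0.64 and S100b at -1.41. All Naa10-KO arrays were higher in 2 of the 9 markers (10.0% of all genes) and lower in 2 (8.14%). Enzymes of sugar chains that receptors need, mutated in congenital myasthenia, gave a median of -0.06 (5 measured, 0 passed, 1 at an unadjusted p under 0.05), with Alg14 at -0.89, Gmppb at -0.29 and Gfpt1 at 0.09.

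Other acetylcholine receptors include Chrna2, a neuronal-type subunit reported to act in thermogenic adipocytes of subcutaneous fat. Chrna2 was at 5.97, 6.79 and 7.15 in WT and 3.59, 6.44 and 4.87 in Naa10-KO. The WT arrays all reached the mark and 1 Naa10-KO array did, but the groups overlapped (log2 difference -1.67, SE 0.78, 95% interval -3.63 to 0.30, limma adjusted p = 0.585). On the same arrays 8 beige adipocyte markers had a median log2 difference of 0.35, with 6 means higher and 2 lower. Of these 8, 0 passed and 3 had an unadjusted p under 0.05, against 9.20% of all genes. In Ucp1 (6.17), Cidea (2.10) and Cox8b (1.17) every Naa10-KO array exceeded every WT array, against 10.0% of all genes. The groups overlapped in Elovl3 (0.36), Ppara (0.34) and Ppargc1a (0.27), and in Prdm16 (-0.12) and Dio2 (-0.97), the 2 with lower means. The part of beige adipocytes in the Chrna2 values was not tested, nor was the part of muscle content in those of the beige markers, Cox8b among them. Chrna5, an accessory subunit, averaged 7.14 in WT against 7.82 in Naa10-KO (difference 0.68, adjusted p = 0.540), and Chrna7, the subunit of homomeric receptors, differed by 1.87 with all arrays below the mark. Of the 10 neuronal nicotinic subunits measured, 0 passed, 1 had an unadjusted p under 0.05, and 7 stayed below the mark on all arrays (median 0.20). Of 3 muscarinic receptors measured, 0 passed and 0 had an unadjusted p under 0.05 (median 0.04), with Chrm3 at -0.79, Chrm1 at 0.04 and Chrm4 at 0.04.

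**Figure D4:**
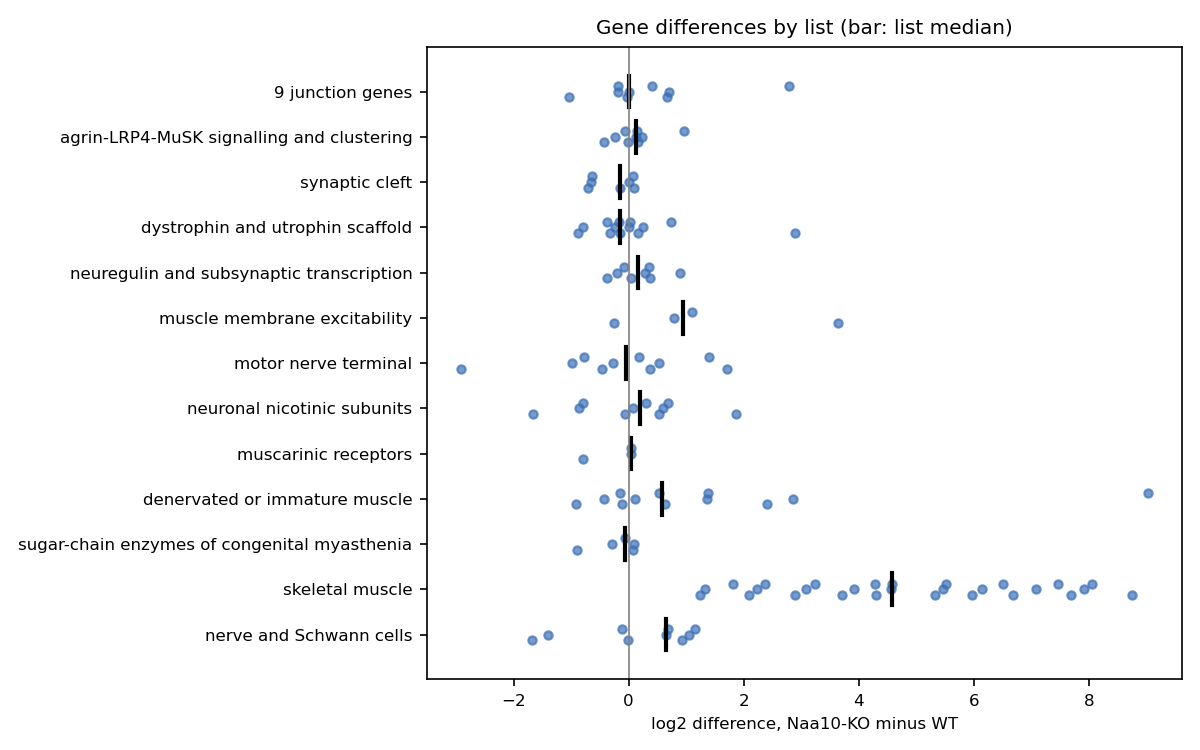
Log2 difference between Naa10-KO and WT of each measured gene (points), by list, with the list median as a bar (3 arrays per genotype). The 9 junction genes centre on 0.01 and the 28 skeletal muscle markers on 4.57. The medians of the pathway lists lie between -0.15 and 0.94, and their single genes between -2.91 (Syt2) and 9.02 (Trim63).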

How the data were processed

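The authors deposited 1 log2 signal per probe set and array (Affymetrix Mouse Genome 430 2.0, from 3 µg of total RNA per the labels' protocols). The linear signal trimmed by 2% at each end averaged 500 on all 6 arrays, and their software is not stated. Values were used as deposited. Probe sets were named by a GEO platform annotation, 34945 with 1 gene, 932 with several and 9160 with none, and each gene took its probe set of highest mean. The genotype comparison used limma (version 3.58.1, R version 4.3.3, with lmFit and eBayes, 2-sided, prior degrees of freedom 1.39) and Benjamini-Hochberg adjustment over 18193 genes. The steps were tested on simulated data with normally distributed values and equal spread in both genotypes. The spread was unequal for some genes on these arrays, such as Chrna1, so that run does not cover them. The number of arrays limits the precision. Replicate numbers were not used, since the mice differ and no label ties the numbers together. The members, lists, tests and markers were chosen with earlier results of these data known. Named are all 9 members, up to 3 genes per pathway list by smallest unadjusted p, Agrn, Dok7, Colq, Utrn, Scn4a, Chrna2, Myog, Ncam1 and Myh3, and the 5 genes most like Chrna1. Neb, Ckm, Ldb3, Pvalb, Lipe, Fabp4, Gadd45a, Runx1, Ucp1, Cidea, Cox8b, Elovl3, Ppara, Ppargc1a, Prdm16, Dio2, Mbp, Cdh19, S100b, Chat, Slc18a3, Myh8, Ankrd1 and Dach2 were chosen after their values were seen. Alternatives were other scalings, a filter and a floor at the median of all values, other probe set rules, trend and robust options, a replicate block, 1 array left out and another threshold.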

Additional observations from a re-analysis of the deposited data

How the results depend on the processing

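Members past the threshold numbered 0 in all 15 alternatives, and member probe sets 0 in both of theirs. Members whose genotypes did not overlap numbered 1 with the arrays as deposited (18.1% of all genes), 0 after quantile normalization (18.3%), 0 after median centring (15.5%), 0 of 4 tested with the floor (20.1%), and 1 to 4 with 1 array left out (25.5% to 31.7%). Genes called over the whole array, 21, became 87 with the filter on low values, 117 with the floor, 137 with trend and robust options, 50 at a threshold of 0.10, 0 with the mean of all probe sets, and 0 to 30 with 1 array left out. Calls were 0 with the replicate number as a block. Deviations of arrays with the same number correlated at -0.02 to 0.00, so the numbers are not shown to pair the mice. With 1 array left out, differences ranged from -1.04 to 0.59 for Chrne, -0.90 to 0.87 for Chrng, -0.38 to 1.42 for Musk and -0.60 to 0.45 for Ache, each turning sign in some fits. Those of Chrna1 (1.71 to 3.77), Chrnb1 (0.14 to 0.66), Chrnd (-1.79 to -0.24), Rapsn (0.41 to 0.93) and Lrp4 (-0.41 to -0.02) kept theirs. The filter on low values left only Chrna1 and Chrnb1 of the members in the test, and the floor left 4. Signals below the median of all values limit what these arrays say about the other members.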
